A study of Homo sapiens with 8 samples.

Results

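The genes examined here were the hypoxia-inducible factors and a set of genes of the hypoxia response, read in human colon cancer cells 24 h after transfection of a miR-143 duplex. The list held 10 genes, namely HIF1A, EPAS1, ARNT, EGLN1, EGLN3, VEGFA, CA9, BNIP3, NDRG1 and PDK1, and every probe set annotated to one of these genes and to no other gene was taken. This gave 27 probe sets for 9 genes, out of 41091 probe sets for 19752 genes on the array, and CA9 was not analysed here because no probe set was annotated to it alone. The arrays were made to find targets of miR-143, and the title of the series names hexokinase 2 (HK2), the first enzyme of glycolysis and itself a gene of the hypoxia response. The question here was whether the HK2 difference came with a wider difference in hypoxia genes that lie outside glycolysis.

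The samples were 4 cultures transfected with 50 nM miR-143 duplex and 4 mock transfected cultures, all of DLD-1, an established line from a colon carcinoma. Both groups received Lipofectamine, grew in high glucose medium under 20% oxygen and 5% CO2, and were harvested at the same 24 h. This model has limits that bear on the genes below. The cells were not placed in low oxygen, the miRNA was supplied transiently to a single line, and the mock cells are not stated to have received a control duplex. Messenger RNA was measured on Affymetrix HG-U133 Plus 2.0 arrays, and values are log2 signals after RMA, a method that subtracts background, brings the arrays to a shared distribution and summarises the probes of a probe set. A log2 difference of 1 is a doubling of signal, and differences between arrays are what these values mainly allow to be compared. Levels of different genes are set side by side below only as rough ranks of signal, not as amounts of message.

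Cells sense oxygen through the HIF factors. In well oxygenated cells the prolyl hydroxylases encoded by EGLN1 and EGLN3 mark the alpha subunits, HIF-1 alpha (HIF1A) and HIF-2 alpha (EPAS1), for ubiquitination by the VHL complex and degradation. When oxygen is low the alpha subunits persist, pair with ARNT and bind hypoxia response elements of target genes, among them genes for blood vessel growth, glucose use, mitochondrial turnover and the hydroxylases themselves. The alpha subunits are thus controlled largely as proteins, which an expression array does not measure.

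The transfected agent is shown first, since its seed, bases 2 to 8, is what pairs with target messages. RefSeq (GRCh38.p14) places the mature strand on chr5:149428978-149428998, plus strand, and the seed is in capitals.
hsa-miR-143-3p: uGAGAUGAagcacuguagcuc
A core of the hypoxia response element, taken here as ACGTG or its reverse complement CACGT, was then searched in the 250 bases before each start in the RefSeq promoter records of the same build. Other forms of the core were not searched. The letters CACGTG count on both strands. The core was in 6501 of 35116 records (18.5%). This is a share of records, whereas the listed genes are counted below as genes with the core in any record. HIF1A and PDK1 had 2 records each, so the 2 counts are not directly comparable. Of the 10 listed genes, 8 had a record and 4 of them (EGLN1, CA9, BNIP3 and PDK1) held the core, while HIF1A, EPAS1, ARNT and EGLN3 did not hold these letters in this window. Stretches of 30 bases are shown for 2 of the hypoxia genes and for 3 genes they are set against, each read 5′ to 3′ on the gene's own strand with the core in capitals. The EGLN1 stretch lies at chr1:231422288-231422317 (minus strand) with the core 13 bases before the annotated start, and the BNIP3 stretch at chr10:131982040-131982069 (minus strand) with the core 134 bases before it. HK2 has a core 48 bases before its first start (chr2:74834067-74834096, plus strand), PGK1 202 bases before (chrX:78104034-78104063, plus strand) and DDIT4 125 bases before (chr10:72273787-72273816, plus strand).
EGLN1: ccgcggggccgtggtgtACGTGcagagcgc
BNIP3: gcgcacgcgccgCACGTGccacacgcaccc
HK2: aatgggcgtgcgCACGTcactgatccggag
PGK1: gcggcgtgccggACGTGacaaacggaagcc
DDIT4: agaacgttgcttACGTGcgcccggagtcca
A match describes letters only, and factor binding was not measured in these samples.

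The arrays had medians of 7.26 to 7.33 over the probe sets of single genes. The array numbered 4 of each group stood apart from the other 6 arrays, with first principal component scores of 33.1 (miR-143) and 35.3 (mock) against −24.8 to −4.48, and this component held 63.6% of the variance. Both arrays numbered 4 were above the other 6 for 27.3% of all probe sets and below them for 17.7%, so values without these 2 arrays are given beside those of each hypoxia gene. Of the colon epithelial markers 10 of 11 were above the median level of all probe sets, with EPCAM at 13.40 to 13.99 and KRT18 at 14.35 to 15.20 over the 8 arrays, as were 1 of 6 fibroblast, 1 of 4 endothelial and 1 of 2 leukocyte markers. All 11 epithelial markers were on the low side in miR-143 cells with a median difference of −0.04, where 55.6% of the leading probe sets of all genes were, but 5 of the 11 were on the high side without mock replicate 4 (median −0.01) and 2 without both arrays numbered 4 (median −0.07). Leaving out mock replicate 4 alone, here and below, kept miR-143 replicate 4, which stood apart in the same direction, without a counterpart. The part of the epithelial markers in the results below was not tested.

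No probe set of the hypoxia genes passed the test in miR-143 cells against mock cells. The log2 differences ranged from −0.13 for a VEGFA probe set to 0.17 for an EPAS1 probe set, with 12 of the 27 lower and 15 higher in miR-143 cells and a median of 0.01, beside a median of −0.01 over all probe sets. With limma across the 41091 probe sets and Benjamini-Hochberg adjustment, 0 of the 27 were called lower and 0 higher, 0 had an unadjusted p under 0.05, and the adjusted p-value of each was 1.0. The same test called 0.00243% of all probe sets lower (1 probe set) and 0% higher, so the test itself made almost no calls in this design and the count of 0 does not set the hypoxia genes apart. Nor did any of the 27 have all 4 miR-143 arrays below all 4 mock arrays, or all above, which held for 1.25% and 0.781% of all probe sets. In this fit, which had no block, the lowest unadjusted p among them was 0.0931 (limma, EGLN3), and all 27 of the 95% intervals included 0. A second limma fit added the replicate number as a block. Its unadjusted p was 0.00584 for EPAS1 (higher), 0.0205 for VEGFA (lower) and 0.0311 for EGLN3 (higher), on their leading probe sets. The remaining probe sets of the hypoxia genes were not under 0.05. That fit put 3630 of the 41091 probe sets under 0.05 and called 0 of the 27.

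**Figure D1:**
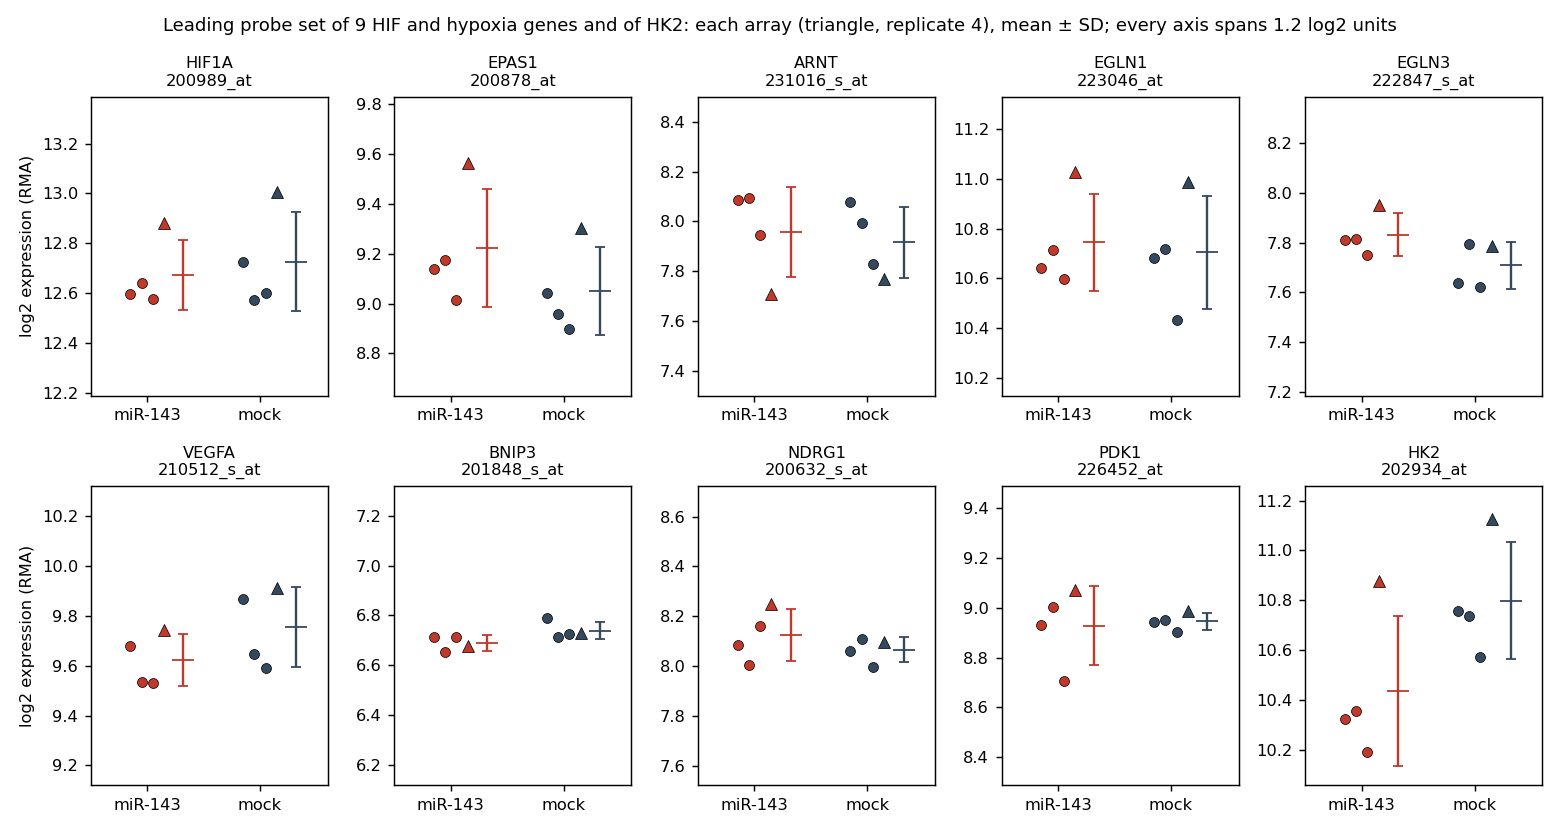
Log2 RMA signal (vertical axis) of the leading probe set, the one of highest mean over the 8 arrays, of the 9 hypoxia genes and HK2, with miR-143 arrays left of mock arrays, 1 point per array in replicate order with a triangle for replicate 4, and bars for the mean ± SD of 4 arrays. The 2 groups overlap in every panel, and both arrays numbered 4 lie above the other 6 for HIF1A, EPAS1, EGLN1 and HK2.

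Among the factors themselves, HIF1A, the alpha subunit of HIF-1, was read by 1 probe set. Its log2 signal was 12.60, 12.64, 12.57 and 12.88 in miR-143 cells, against 12.72, 12.57, 12.60 and 13.01 in mock cells. The array numbered 4 was the highest in each group and the remaining 6 arrays interleaved. The means were 12.67 ± 0.14 in miR-143 cells and 12.73 ± 0.20 in mock cells (SD, n = 4 each), a difference of −0.05 with a 95% interval of −0.29 to 0.18, and −0.03 without both arrays numbered 4. The sign of so small a difference was not stable, and it was 0.04 without mock replicate 4 alone.

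EPAS1, the HIF-2 alpha subunit, had the largest difference of the 27 probe sets, and it was on the high side. Its leading probe set was at 9.14, 9.17, 9.02 and 9.56 in miR-143 cells and 9.04, 8.96, 8.90 and 9.30 in mock cells. The 2 highest values were the arrays numbered 4, and the groups overlapped, since mock replicate 4 was higher than 3 miR-143 arrays and mock replicate 1 was higher than miR-143 replicate 3. The difference was 0.17 (95% interval −0.11 to 0.45; exact two-sided permutation p = 0.343, where 70 splits allow no p below 0.0286). Within each replicate number the miR-143 array was above the mock array, though the labels do not say what that number marks. With a single array numbered 4 left out, the other had no counterpart. The difference was then 0.06 (without miR-143 replicate 4) or 0.26 (without mock replicate 4). Without both arrays numbered 4 it was 0.14 with an interval of 0.00547 to 0.28, the only one of the 27 that then excluded 0, and a limma adjusted p of 0.863. The other EPAS1 probe sets differed by 0.04 and 0.02.

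ARNT, the shared partner of both alpha subunits, was read by 7 probe sets, 4 lower and 3 higher in miR-143 cells, with differences from −0.08 to 0.04. Its leading probe set was at 8.09, 8.09, 7.94 and 7.71 in miR-143 cells and 8.08, 7.99, 7.83 and 7.77 in mock cells. Here the arrays numbered 4 were the lowest of their groups, unlike at the leading probe sets of HIF1A and EPAS1. The difference was 0.04 (95% interval −0.18 to 0.27), or 0.08 without both arrays numbered 4.

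The oxygen sensing hydroxylases gave 6 probe sets, 5 of them higher and 1 lower in miR-143 cells. EGLN1, the principal HIF prolyl hydroxylase of most cells, was at 10.64, 10.71, 10.60 and 11.03 in miR-143 cells and 10.68, 10.72, 10.43 and 10.99 in mock cells on its leading probe set. The arrays numbered 4 were the highest of both groups and mock replicate 3 the lowest, and most of the other arrays lay close together, giving a difference of 0.04 (95% interval −0.24 to 0.32), and also 0.04 without both arrays numbered 4. The other 3 EGLN1 probe sets differed by 0.02, 0.03 and −0.07.

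EGLN3, an inducible hydroxylase and a well known target of the factors it restrains, had the lowest unadjusted p of the 27 probe sets without a block, on the high side. It was at 7.81, 7.82, 7.75 and 7.95 in miR-143 cells, against 7.64, 7.79, 7.62 and 7.79 in mock cells. Only miR-143 replicate 3 lay under the 2 highest mock arrays. The difference was 0.12 (95% interval −0.02 to 0.27; exact two-sided permutation p = 0.143), and 0.11 without both arrays numbered 4. Its other probe set differed by 0.05.

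VEGFA, which encodes the main growth factor for blood vessels, had the largest difference on the low side. The leading probe set was at 9.68, 9.54, 9.53 and 9.74 in miR-143 cells and 9.87, 9.65, 9.59 and 9.91 in mock cells. Mock replicates 1 and 4 lay above every miR-143 array, while mock replicates 2 and 3 lay within the miR-143 range. The means of 9.62 ± 0.11 in miR-143 cells and 9.75 ± 0.16 in mock cells (SD, n = 4 each) differed by −0.13 (95% interval −0.33 to 0.06; exact two-sided permutation p = 0.229). This was −0.12 without both arrays numbered 4 and −0.08 without mock replicate 4 alone, and the other 3 VEGFA probe sets differed by −0.05, −0.04 and 0.01.

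BNIP3, a mitochondrial protein that promotes the removal of mitochondria, was dim on this array. The level of its leading probe set was at the 15.402 percentile of all probe sets and its other one was at the 3.21 percentile. The leading probe set was at 6.71, 6.65, 6.71 and 6.68 in miR-143 cells and 6.79, 6.71, 6.73 and 6.73 in mock cells. These arrays spanned a narrow range with a slight overlap between the groups, and the difference was −0.05 (95% interval −0.15 to 0.05; exact two-sided permutation p = 0.0857, the lowest of the 27 probe sets). Without both arrays numbered 4 it was again −0.05, and the second probe set differed by 0.01.

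NDRG1, a stress-responsive gene used as a marker of hypoxia, was at 8.09, 8.004, 8.16 and 8.25 in miR-143 cells and 8.06, 8.11, 7.998 and 8.10 in mock cells on its single probe set. The 2 highest values were miR-143 arrays, the lowest value of each group was nearly the same, and the difference was 0.06 (95% interval −0.08 to 0.20). It was 0.02 without miR-143 replicate 4 and 0.03 without both arrays numbered 4. PDK1 encodes a kinase that limits the entry of pyruvate into the mitochondrial citric acid cycle. It was at 8.93, 9.003, 8.71 and 9.07 in miR-143 cells and 8.94, 8.95, 8.90 and 8.99 in mock cells. Its mock arrays lay inside the miR-143 range, the difference was −0.02 (95% interval −0.19 to 0.15), or −0.05 without both arrays numbered 4, and the other PDK1 probe sets differed by 0.08 and −0.02.

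HK2, the gene the series is named for, is set against these. Its leading probe set was at 10.32, 10.35, 10.19 and 10.88 in miR-143 cells, against 10.76, 10.74, 10.57 and 11.13 in mock cells. The groups overlapped only through miR-143 replicate 4, which was above 3 of the mock arrays. The difference was −0.36 (95% interval −0.71 to −0.01), a signal of 0.778 of mock (0.610 to 0.992), with an unadjusted p of 0.0442 and an adjusted p of 1.0 in limma without a block and an exact two-sided permutation p of 0.114. With the replicate number as a block, the limma adjusted p of HK2 was 0.00976, and the labels do not say what that number marks. Without both arrays numbered 4 the miR-143 arrays (10.19 to 10.35) no longer overlapped the mock arrays (10.57 to 10.76), and the difference was −0.40 (limma adjusted p = 0.0782). The other HK2 probe sets, which differed by 0.06 and −0.07, did not show it.

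**Figure D2:**
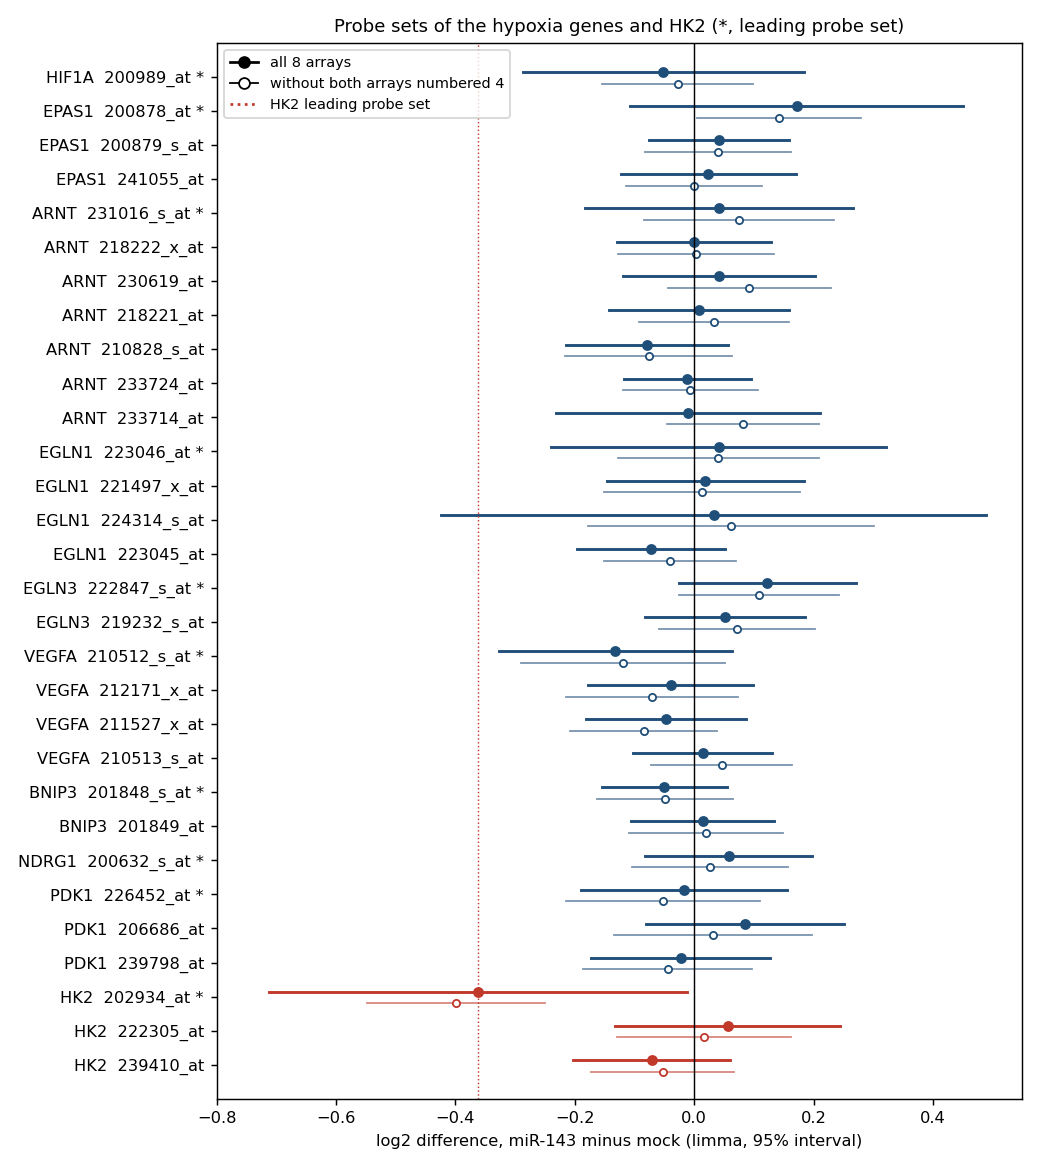
Log2 difference, miR-143 minus mock (horizontal axis), with limma's 95% interval, for the 27 probe sets of the hypoxia genes and the 3 of HK2, over all 8 arrays (filled) and without both arrays numbered 4 (open). Nearly all intervals of the hypoxia genes lie to the right of the dotted line at the HK2 difference of −0.36, and all 27 filled ones cross 0.

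The intervals bound how large a difference of the size of HK2 could have gone unseen. For 26 of the 27 probe sets of the hypoxia genes the whole 95% interval lay above −0.36, the point value of HK2, and this held for the leading probe set of all 9 genes. The exception was an EGLN1 probe set with an interval of −0.42 to 0.49. For that probe set it was −0.18 to 0.30 without both arrays numbered 4. The interval of HK2 was itself wide, however, and 9 of the 27 differences fell inside it, so the contrast between HK2 and these genes is not a test of their difference. At the leading probe sets the half-width of the interval was between 0.10 for BNIP3 and 0.28 for EGLN1. These intervals are not adjusted for the number of probe sets, so the half-widths are no limit of detection for the adjusted test. The HK2 difference of −0.36 was larger and was not called in this fit either.

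HK2 was also read relative to each hypoxia gene within the same array, a description chosen after the data were seen. The log2 signal of HK2 minus that of EPAS1 was 1.17 to 1.31 in miR-143 cells and 1.68 to 1.82 in mock cells, the widest gap of the 9 genes. The groups did not overlap for EPAS1, EGLN1 and EGLN3, whose differences were −0.53, −0.40 and −0.48, and overlapped for the other 6 genes. The same non-overlap held for 14.4% of the 19751 other genes, and every such difference contains HK2. For EPAS1 and EGLN1, as for HK2, both arrays numbered 4 were above the other 6. The same was so for HIF1A, where the groups overlapped, and not for EGLN3, where they did not. Whether those arrays shaped the gaps was not tested.

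The arrays numbered 4 stood apart for some of the hypoxia genes and not for others. For 5 of the 27 probe sets (1 each of HIF1A, EPAS1 and ARNT and 2 of EGLN1) both arrays numbered 4 were above the other 6, and for 2 (1 each of EPAS1 and ARNT) both were below. Leaving them out gave a median of 0.02 over the 27 probe sets and again 0 calls (lowest limma adjusted p 0.863).

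The rest of the pathway was read through 3 further gene lists, using the leading probe set of each gene. Without a block, 0 genes of any list passed the test in either direction (limma, every adjusted p 1.0). With the replicate block, limma called 0 genes of HIF regulation, 2 other hypoxia genes and 2 glycolytic genes, all lower. It called 107 of the 19752 leading probe sets of all genes lower and 31 higher. The list of HIF regulation, which holds VHL complex subunits, coactivators and inhibitors, had 15 of 15 genes measured, 10 lower and 5 higher in miR-143 cells, with a median difference of −0.03 beside −0.01 over the leading probe sets of all genes. Without mock replicate 4 that median was 0.07, and without both arrays numbered 4 it was −0.03. At an unadjusted p under 0.05 (limma) there were 0 lower and 2 higher, where 1.88% and 0.815% of the leading probe sets of all genes were. One was EP300, a histone acetyltransferase that HIF recruits, at 8.48, 8.55, 8.57 and 8.54 in miR-143 cells and 8.43, 8.36, 8.28 and 8.47 in mock cells. All miR-143 arrays of EP300 were above all mock arrays, by a narrow margin, which held for 0.719% of all leading probe sets, and the difference was 0.15. The other was CITED2, which competes with HIF-1 alpha for that coactivator and differed by 0.16. HIF1AN, the asparaginyl hydroxylase that blocks coactivator binding, differed by 0.15 and HIF3A, a further alpha subunit, by −0.12.

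The list of other hypoxia genes outside glycolysis had 34 of 35 genes measured, 19 lower and 15 higher in miR-143 cells, with a median of −0.01, or 0.04 without mock replicate 4 and 0.0027 without both arrays numbered 4. An unadjusted p under 0.05 (limma) was reached by 5 genes on the low side and 0 on the high side. Of the leading probe sets of all genes, 1.88% and 0.815% reached it. For 3 genes, DDIT4, HILPDA and FOS, all miR-143 arrays lay below all mock arrays, against 1.24% of the leading probe sets of all genes. DDIT4, an inhibitor of mTORC1 signalling also called REDD1, was at 7.91, 7.86, 7.74 and 8.03 in miR-143 cells and 8.18, 8.15, 8.07 and 8.34 in mock cells. Its highest miR-143 array came close to its lowest mock array, both arrays numbered 4 were the highest of their groups, and the difference was −0.30 (95% interval −0.47 to −0.12), or −0.29 without them. HILPDA, a lipid droplet protein, was at 9.18, 9.26, 9.13 and 9.33 in miR-143 cells and 9.40, 9.45, 9.50 and 9.76 in mock cells. Every mock array of HILPDA lay above the miR-143 range, and the difference was −0.30 (95% interval −0.49 to −0.11), or −0.26 without both arrays numbered 4. ANKRD37, which encodes an ankyrin repeat protein, differed by −0.19, and FOS, an immediate early transcription factor, by −0.15 at a level in the 42.1 percentile of all probe sets.

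The list of glycolytic genes that respond to HIF had 19 of 20 genes measured, 15 lower and 4 higher in miR-143 cells, with a median of −0.05. The median was 0.04 without mock replicate 4 alone and −0.10 without both arrays numbered 4. Both of those arrays were above the other 6 for 14 of the 19 genes. PGK1, which makes ATP in the lower part of glycolysis, was at 12.81, 12.81, 12.79 and 13.26 in miR-143 cells and 13.08, 13.01, 13.07 and 13.52 in mock cells. As with HK2, only miR-143 replicate 4 overlapped the mock arrays, and the difference was −0.25 (95% interval −0.56 to 0.05), or −0.14 without mock replicate 4 and −0.25 without both arrays numbered 4. SLC2A1, the glucose transporter GLUT1, differed by −0.20 and PFKFB4, a regulator of phosphofructokinase activity, by 0.11.

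**Figure D3:**
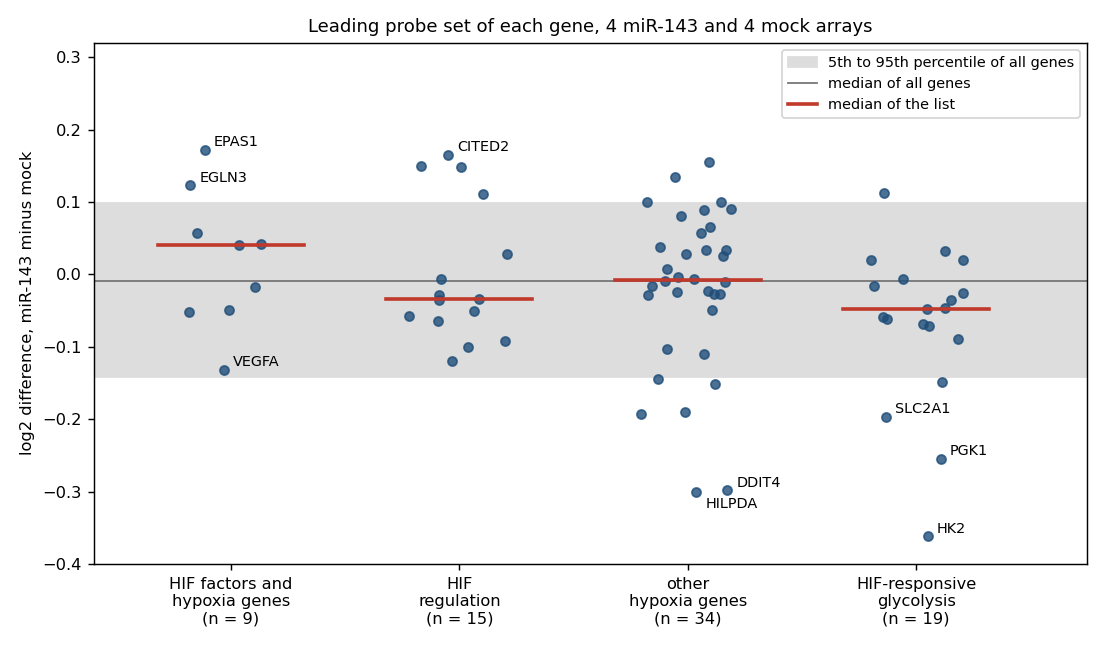
Log2 difference, miR-143 minus mock (vertical axis), of the leading probe set of each gene in 4 lists, with the median of each list (red line), the median of all genes (grey line) and the band from the 5th to the 95th percentile of all genes. EPAS1 and EGLN3 lie above the band of −0.14 to 0.10, VEGFA lies within it, and the lowest points are HK2 among glycolytic genes and HILPDA and DDIT4 among other hypoxia genes.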

How the data were processed

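RNA from 4 miR-143 and 4 mock transfected DLD-1 cultures was read on 8 arrays. The authors deposited log2 values made by RMA with the affy package, per the labels, with versions not given in the sources used here. RMA gives the arrays a common distribution, which removes any overall shift. Differences at dim probe sets are compressed in such values. Of 54675 probe sets, 41091 had 1 gene symbol in the platform annotation, 1801 had several, 11721 had none and 62 were controls. Columns of other samples numbered 0. The number of arrays limits precision. The p-values measure the spread between the cultures, which the methods describe as biological replicates. In the fit without a block this spread includes the shift shared by both arrays numbered 4. For the leading HK2 probe set the standard error was 0.157 without the replicate block and 0.0508 with it.

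The deposited values were tested with limma 3.58.1 (R 4.3.3; lmFit and eBayes) on all single-gene probe sets without a block, with Benjamini-Hochberg adjustment and a threshold of 0.05. Exact two-sided permutation tests over 70 splits of the arrays were run for single probe sets. The fit was tested on simulated data with noise independent between arrays and no shift shared by the arrays numbered 4. That simulation does not show how small a difference could be found here. Figures were drawn with matplotlib 3.10.9. The genes and lists were chosen with earlier results of these data known, so p-values were not adjusted over a list alone. Named genes were all listed genes, HK2 and, of each further list, the 4 of lowest p. Sequences came from RefSeq tables (GRCh38.p14). No columns of comparisons made by the authors were used. Alternatives were the replicate block, 2 further normalizations, a filter on dim probe sets, array weights, 2 ways of reducing probe sets to genes, and leaving out arrays.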

Additional observations from a re-analysis of the deposited data

Results flagged for a closer look

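In 3 groups of 4 arrays, 1 array lay so far from the others that its gap, as a share of the range of the group, passed the 95% critical value of Dixon's test. With 60 groups checked, chance alone gives about 1 in 20, or 3. Each time the array was a replicate 2 on a probe set that is not the leading one of its gene. For PDK1, miR-143 replicate 2 was at 6.98, whereas the remaining miR-143 values spanned 6.78 to 6.81 (gap over range 0.842). For ARNT, mock replicate 2 was at 6.90, whereas the remaining mock values spanned 7.07 to 7.10 (gap over range 0.847). For VEGFA, mock replicate 2 was at 8.35, whereas the remaining mock values spanned 8.12 to 8.16 (gap over range 0.846).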

How the results depend on the processing

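The count of hypoxia gene probe sets called by limma was 0 lower and 0 higher under all 17 alternatives, with lowest adjusted p-values from 0.255 to 1.0. The median difference of the 27 probe sets, 0.01, was 0.0410 with 1 probe set per gene and −0.00396 to 0.0273 when single arrays were left out. Leaving out single arrays gave 0 to 2 probe sets with all miR-143 arrays below all mock arrays (BNIP3 and ARNT without mock replicate 2, EGLN1 without mock replicate 3) and 0 to 1 above (EGLN3 without miR-143 replicate 3). Cyclic loess gave 2 above (EPAS1 and EGLN3) and the mean of the probe sets of a gene gave 1 (EPAS1). Leading differences near 0 changed sign: HIF1A was 0.0306 after cyclic loess and −0.121 to 0.0416 with single arrays left out, ARNT −0.0014 as a mean of probe sets and −0.00822 to 0.125, EGLN1 −0.0530 to 0.135, and PDK1 0.0130 after cyclic loess, 0.0150 as a mean and −0.0652 to 0.0564. The cause was not tested.

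With the replicate block, limma called 171 probe sets lower and 45 higher, against 1 and 0 without it, and with both arrays numbered 4 left out it called 32 lower and 19 higher without the block. The block called 0 hypoxia gene probe sets (lowest adjusted p 0.255, EPAS1) and called HK2 (adjusted p 0.00976, or 0.0294 also without both arrays numbered 4, a fit chosen after the data were seen), PGK1 (0.0445), DDIT4 (0.0190) and HILPDA (0.0425). The labels do not say what a replicate number marks. Correlations of deviations between arrays of the same number were 0.0787, 0.108, 0.558 and 0.772 for numbers 1 to 4, and not every array correlated best with its own number. Other call counts were 37 lower and 23 higher after cyclic loess and 35 and 19 with array weights.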
